A study of Homo sapiens with 22 samples.

Results

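The genes that build cholesterol and fatty acids were followed through RNA sequencing of HT1080 cells, an established human fibrosarcoma line. They were the rows of the count table that carry 31 gene names, out of 60675 genes in the table. Of these, 18 encode enzymes of sterol synthesis (HMGCS1, MVK, PMVK, MVD, IDI1, FDPS, FDFT1, SQLE, LSS, CYP51A1, TM7SF2, MSMO1, NSDHL, HSD17B7, EBP, SC5D, DHCR7 and ACAT2), 5 encode regulators of the pathway (INSIG1, STARD4, SREBF1, SREBF2 and LPIN1) and 8 encode enzymes of fatty acid synthesis (FASN, SCD, ACACA, ACLY, ACSS2, FADS1, FADS2 and ELOVL6). The members were named from what their products do, with earlier results of these data known, and all 31 passed the filter on low counts in every comparison. The smallest level of any member in any library was 1.47 CPM (counts scaled to library size), for SC5D, and the smallest count was 16.

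The 22 libraries fell into 6 groups, all grown in the same medium with fetal bovine serum. The untreated wild-type cells (WT, n = 4) were the reference. In KDAC6H216A (n = 4) and KDAC6H611A (n = 4), genotypes HDAC6H216A and HDAC6H611A in the labels, the catalytic histidine of the first or of the second deacetylase domain of KDAC6 had been replaced by alanine at the endogenous locus with CRISPR/Cas9. In KDAC8H143A (n = 4), genotype HDAC8H143A, the same was done to the catalytic histidine of KDAC8, so that each line kept a deacetylase without activity in that domain rather than losing the protein. WT cells were also treated for 2 days with Tubastatin A, a KDAC6 inhibitor, at 1 µM (n = 3) or with PCI-34051, a KDAC8 inhibitor, at 5 µM (n = 3). KDAC6H216A pooled independent clones, whereas KDAC6H611A and KDAC8H143A each grew from single colonies, and all the edited lines also carried non-coding changes made for screening. KDAC8H143A had in addition an unintended base in an intron. No label names a vehicle for the WT cells. The methods call the libraries of a group biological replicates, but neither they nor the labels say that these came from separate cultures. The p-values therefore measure the spread between these libraries.

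Animal cells make cholesterol from acetyl-CoA through mevalonate and squalene, and they make fatty acids from the same precursor through malonyl-CoA. Both sets of genes are switched on by the sterol regulatory element-binding proteins, SREBP-2 (gene SREBF2) mainly for sterol enzymes and SREBP-1 (gene SREBF1) mainly for fatty acid enzymes. When sterols are plentiful, INSIG1 holds the SREBPs in the endoplasmic reticulum. When sterols are scarce, the SREBPs travel to the Golgi, are cut and enter the nucleus, and INSIG1 is itself one of their targets.

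Total counts ran from 5248953 to 29862665, with group medians of 28547005 with Tubastatin A, 25751748 with PCI-34051, 8283998 in WT, and 11205679, 8159538 and 11730574 in KDAC6H216A, KDAC6H611A and KDAC8H143A. The libraries differed in the share of counts on the 2 mitochondrial rRNAs. It was 20.8% to 23.9% in WT, at most 0.0259% in KDAC8H143A and at most 0.00541% with either inhibitor, so that this difference between libraries and the groups cannot be told apart. Within the KDAC6 lines it split the replicates. KDAC6H216A replicate 1 had 0.195% and the other 3 had 13.1% to 15.1%, and KDAC6H611A replicate 4 had 0.173% and the other 3 had 21.0% to 38.0%. Counts for these lines are given with and without those libraries. All 8 mesenchymal markers checked were detected, with summed levels of 3490 to 9249 CPM, although THY1 was low, with a median of 0.576 CPM. The summed epithelial, immune and hepatocyte markers reached at most 0.838 CPM in any library, with none of their defining markers over 1 CPM in any. The adipocyte markers ADIPOQ, PLIN1 and LEP were likewise never over 1 CPM, while FABP4, also on that list, reached 1.35 CPM (summed list at most 1.45 CPM). The 3 endothelial markers summed to at most 3.69 CPM. In the bulk RNA used here, fewer cells of a kind and less RNA per cell cannot be told apart.

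Motifs in the promoters of the members were counted beside those of all genes with a listed promoter. RefSeq gives a promoter for 27 of the 31 members (GRCh38.p14), with none for FASN, ACAT2, SQLE and FDFT1 in the table used, and the 250 bases before the start were searched on both strands. The CCAAT box (CCAAT, or ATTGG on the other strand), the site of NF-Y, a factor that works beside the SREBPs, stood in 20 of 27 members (74.1%) against 37.0% of 27305 genes. By list it was in 13 of 15 sterol promoters, 3 of 5 regulators and 4 of 7 fatty acid promoters. The GC box (GGGCGG, or CCGCCC) stood in 26 of 27 members (96.3%) against 46.2% of all. The E-box CACGTG was in 2 members, INSIG1 and SC5D, 7.41% against 7.73% of all, and the sterol regulatory element written as TCACNCCAC (or GTGGNGTGA) was in 1, SREBF2, 3.70% against 1.09% of all. A window without these letters says only that these exact letters are not in it. All genes here include genes not expressed in these cells, so the shares do not show a trait particular to this pathway.

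The 5 promoters below are shown because their genes carry the patterns described next: HMGCS1 passed the threshold in all 5 comparisons with WT, INSIG1, SREBF1 and SREBF2 are the switch itself, and SCD had the highest level per length. They run 5′ to 3′ on the strand of the gene and leave out bases of the searched window that lie inside the annotated gene, so that 150 of 250 bases are shown for HMGCS1, 148 for INSIG1, 234 for SREBF1 and all 250 for SREBF2 and SCD. The E-box of INSIG1 lies in the part not shown. Capitals mark a CCAAT box or, in SREBF2, also the sterol regulatory element. The HMGCS1 stretch is chr5:43313513-43313662 (minus strand), INSIG1 chr7:155297628-155297775 (plus), SREBF1 chr17:17837003-17837236 (minus), SREBF2 chr22:41832855-41833104 (plus) and SCD chr10:100346983-100347232 (plus).
HMGCS1: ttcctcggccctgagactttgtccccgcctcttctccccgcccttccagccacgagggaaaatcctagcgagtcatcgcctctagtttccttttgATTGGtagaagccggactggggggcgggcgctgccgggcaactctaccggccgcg
INSIG1: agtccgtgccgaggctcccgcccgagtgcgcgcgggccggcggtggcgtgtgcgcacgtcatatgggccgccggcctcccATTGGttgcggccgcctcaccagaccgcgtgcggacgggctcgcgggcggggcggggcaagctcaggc
SREBF1: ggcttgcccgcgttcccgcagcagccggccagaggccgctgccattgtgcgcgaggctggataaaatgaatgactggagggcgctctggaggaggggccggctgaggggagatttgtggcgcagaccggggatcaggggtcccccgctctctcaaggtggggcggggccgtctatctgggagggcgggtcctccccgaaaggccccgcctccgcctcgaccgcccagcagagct
SREBF2: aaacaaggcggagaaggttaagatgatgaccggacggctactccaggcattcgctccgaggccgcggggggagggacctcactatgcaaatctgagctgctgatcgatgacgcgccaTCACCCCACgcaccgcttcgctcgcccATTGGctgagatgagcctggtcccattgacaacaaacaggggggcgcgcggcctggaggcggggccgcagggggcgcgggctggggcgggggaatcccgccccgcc
SCD: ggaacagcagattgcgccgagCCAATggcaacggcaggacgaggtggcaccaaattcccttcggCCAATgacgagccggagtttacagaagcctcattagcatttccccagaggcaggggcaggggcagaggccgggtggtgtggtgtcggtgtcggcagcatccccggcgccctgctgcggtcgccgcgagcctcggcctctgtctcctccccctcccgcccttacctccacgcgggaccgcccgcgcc
HMGCS1 and INSIG1 each held 1 CCAAT box in the stretch shown, SREBF2 held 1 beside its sterol regulatory element, SCD held 2, and SREBF1 held neither of these motifs. GC boxes are not marked.

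In WT cells, levels compared per length (CPM per kilobase of all annotated exons of the gene, merged) were led by fatty acid enzymes. SCD, the desaturase that makes oleate, had 111 CPM per kilobase, FASN, the fatty acid synthase, 82.0, and ACLY, which supplies cytosolic acetyl-CoA from citrate, 70.9. The most abundant sterol enzymes were MSMO1 with 36.9, FDPS with 33.5 and CYP51A1 with 31.4 CPM per kilobase. The least abundant were TM7SF2, one of the sterol reductases, with 1.99, SC5D with 2.00 and HSD17B7 with 2.55 CPM per kilobase, of which the first and second differ by less than their spread. Reads of HSD17B7 are uncertain, since the near-copy HSD17B7P2 had 25.3% as many counts. The spread between libraries also differed by group. The median coefficient of variation over the 31 members was 3.49% with Tubastatin A, 4.65% with PCI-34051 and 7.71% in WT, and 16.9%, 18.6% and 19.1% in KDAC8H143A, KDAC6H216A and KDAC6H611A.

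**Figure D1:**
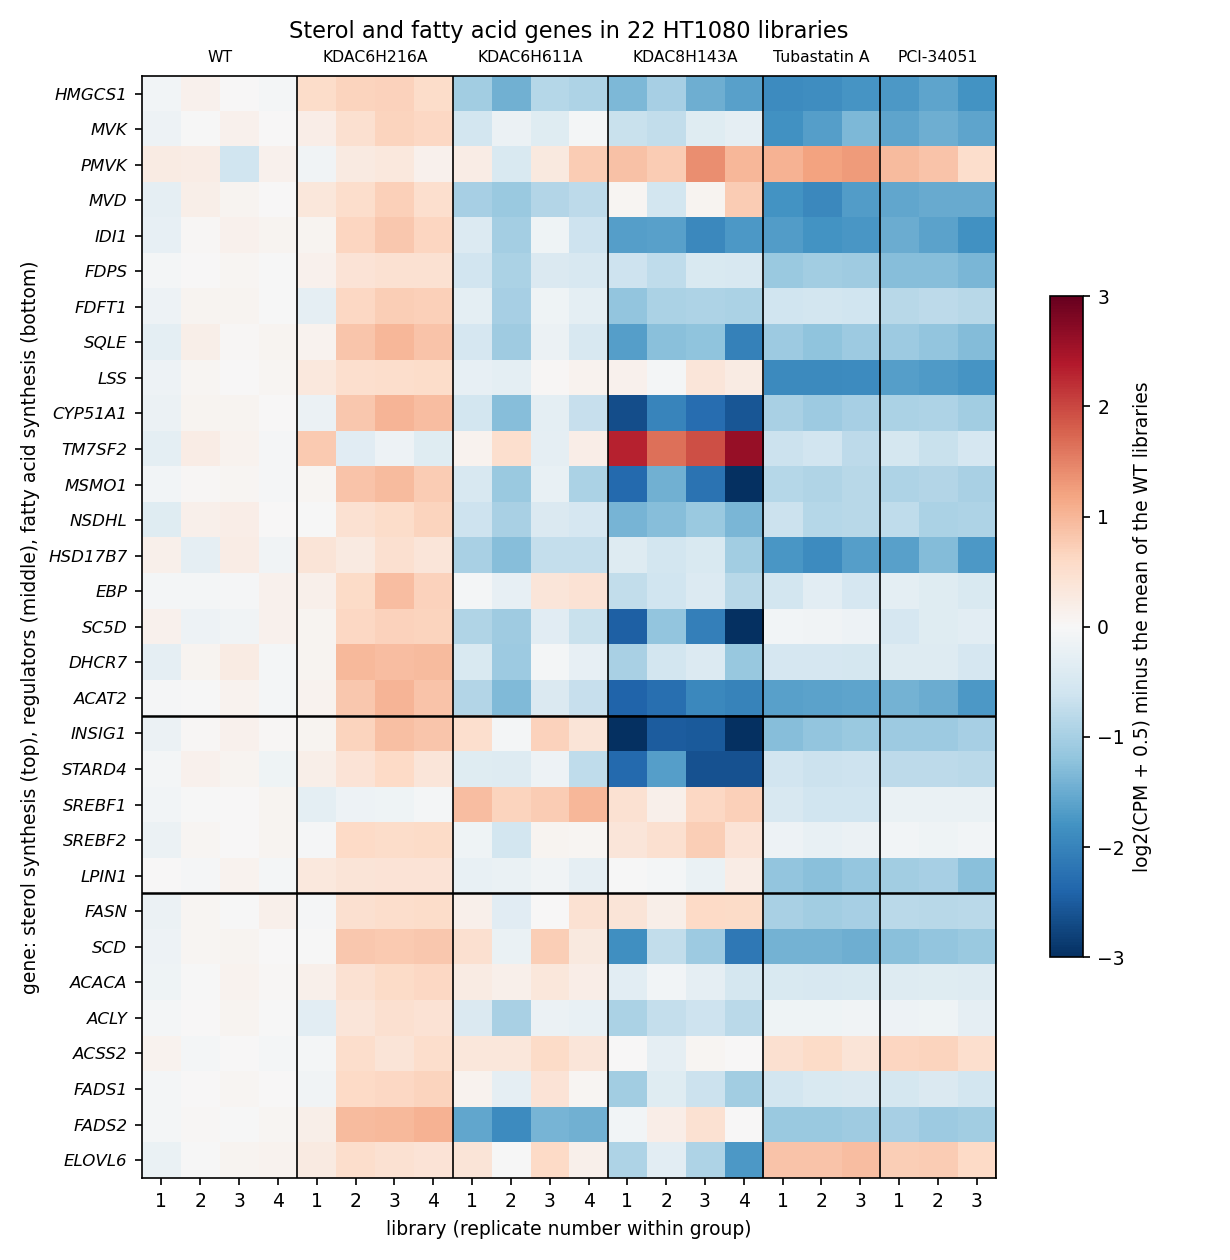
Levels of the 31 members (rows, grouped as sterol synthesis, regulators and fatty acid synthesis) in each of the 22 libraries (columns, by group), as log2(CPM + 0.5) minus the WT mean of that gene, in color. Most rows are below WT in both inhibitor groups, KDAC6H216A replicate 1 is paler than the other 3 libraries of its group, and TM7SF2 is the row farthest above WT in KDAC8H143A.

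The first comparison asked how the pathway stood when the first domain of KDAC6 was inactive. In KDAC6H216A, 29 of 31 members had a positive log2 fold change against WT, but only HMGCS1 passed the threshold (edgeR, Benjamini-Hochberg adjusted p below 0.01). HMGCS1 encodes the synthase that makes HMG-CoA at the head of the mevalonate pathway. It had 94.0, 109, 101 and 95.8 CPM in the WT libraries and 146, 160.2, 162 and 147 CPM in KDAC6H216A, replicates 1 to 4 in order. The groups did not overlap, and the level rose by 0.53 ± 0.07 on the log2 scale (SE, edgeR adjusted p = 0.00427, n = 4 and 4), 154 ± 8.68 against 100.04 ± 6.73 CPM (SD). Over all 14500 genes tested, 0.834% were called, 0.214% as higher and 0.621% as lower.

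The other members of KDAC6H216A did not pass, although 27 of 31 had an unadjusted p under 0.05. The share of all genes under that p is not given here, so the count cannot be read as particular to the members. The median log2 fold change was 0.44 over the 18 sterol genes, 0.31 over the 5 regulators and 0.35 over the 8 fatty acid genes, against 0.00 over all genes. Values behind these medians were 0.73 for FADS2, the delta-6 desaturase (edgeR adjusted p = 0.0166), 0.67 for DHCR7, the last reductase of the pathway, 0.64 for ACAT2, a cytosolic thiolase, and 0.62 for SQLE, squalene epoxidase. Only SREBF1, with −0.25, and TM7SF2, with −0.03, were negative. In 12 members all KDAC6H216A libraries lay above all WT libraries, against 5.36% of all genes, and in none below, against 3.20%.

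Replicate 1, the library with 0.195% mitochondrial rRNA, stood apart from its group. It was below the other 3 KDAC6H216A libraries for 29 of 31 members, with a median log2 difference of −0.57, and above them for TM7SF2. SCD shows the split. WT had 523, 602, 617 and 584 CPM, and KDAC6H216A had 573, 1017, 1007 and 1017 CPM, so that replicate 1 lay within the WT range and the other 3 lay far above it. Without that library 27 members rose and 1, SREBF1, fell, against 26.0% of all genes called (12.2% higher). All 8 fatty acid genes, 15 of 18 sterol genes and 4 of 5 regulators were then higher. The log2 fold changes were 0.86 for FADS2, 0.79 for DHCR7, 0.77 for CYP51A1, the lanosterol demethylase, 0.76 for ACAT2 and 0.66 for SCD. SREBF1 had −0.25 with an adjusted p of 0.00191. DESeq2 on all 8 libraries called 15 members, all higher. Its share of all genes called is not given here, so this count has no background beside it. Leaving out any other library, WT or KDAC6H216A, left 0 members called by edgeR. The part of the mitochondrial rRNA share in this was not tested.

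**Figure D2:**
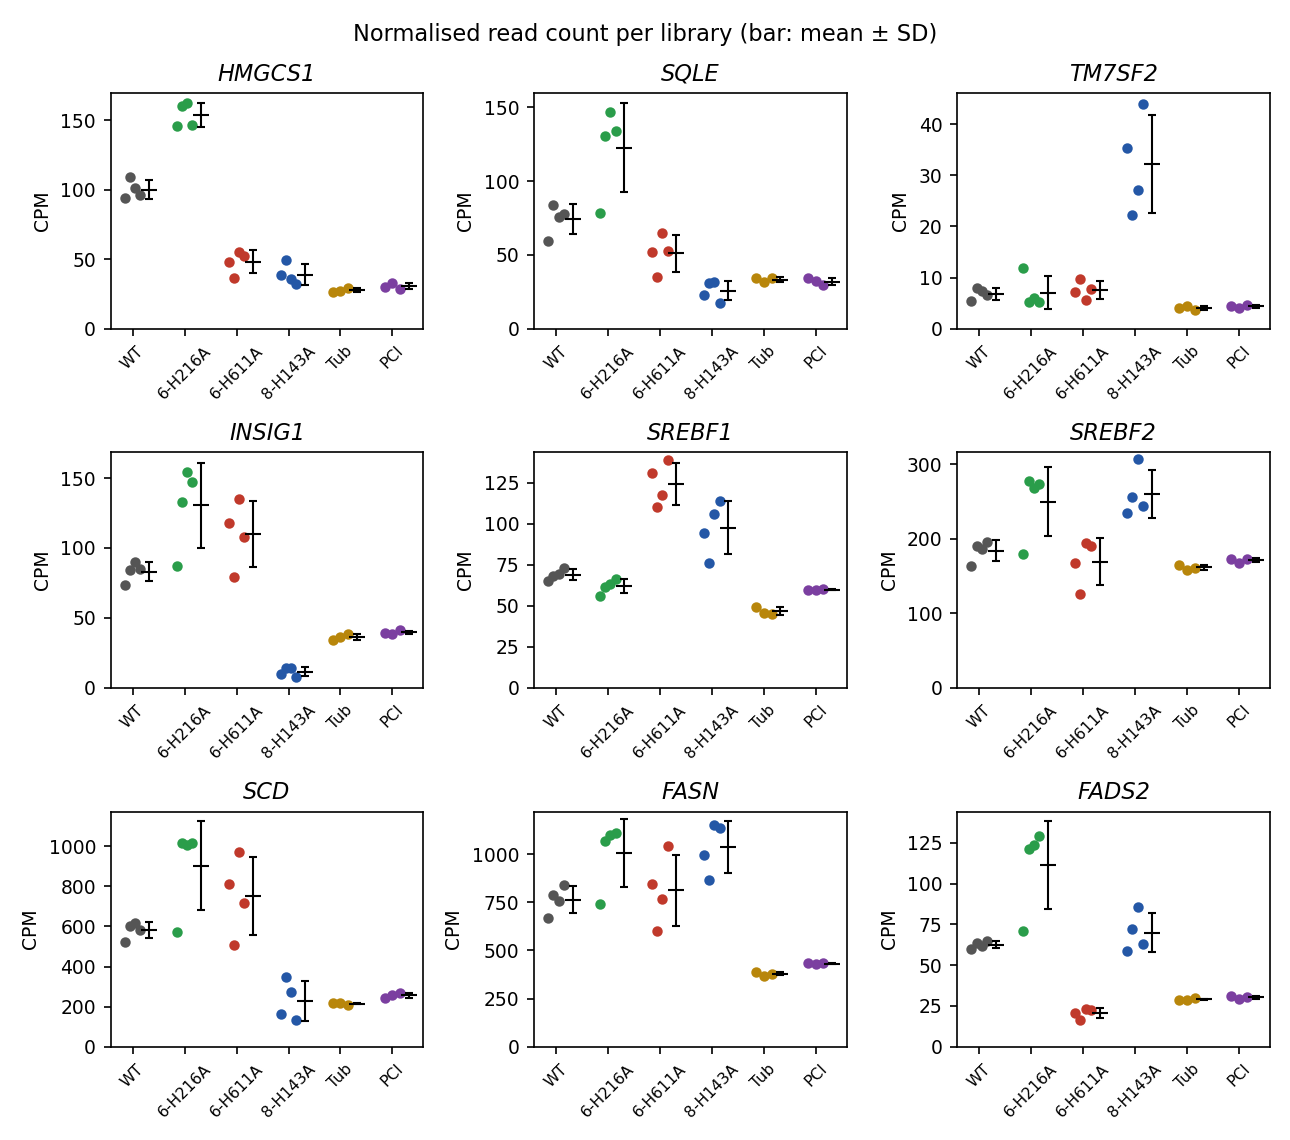
Normalized CPM (vertical axis) in each library for HMGCS1, SQLE, TM7SF2, INSIG1, SREBF1, SREBF2, SCD, FASN and FADS2, by group, with points for libraries and the mean ± SD. In KDAC6H216A the single low SCD point is replicate 1 at 573 CPM, and in KDAC8H143A all 4 TM7SF2 points, 22.3 to 44.01 CPM, lie above every other library.

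The second comparison took the line with the second KDAC6 domain inactive. In KDAC6H611A, 8 of 18 sterol genes fell against WT and none rose, while of the fatty acid genes FADS2 fell and ACSS2 rose, and of the regulators SREBF1 rose. Over all 14725 genes tested, 12.3% were called, 6.08% higher and 6.24% lower. The median log2 fold change was −0.54 for sterol genes, −0.10 for regulators and 0.19 for fatty acid genes, against 0.03 for all genes. The groups did not overlap for 16 members, against 11.6% of all genes above WT and 13.7% below.

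HMGCS1 had the largest fall among the sterol genes. Its 47.9, 36.6, 55.4 and 52.4 CPM in KDAC6H611A were all below the lowest WT library, and it fell by 1.03 ± 0.11 on the log2 scale (edgeR adjusted p = 3.2e-05). MVD, which makes isopentenyl diphosphate from mevalonate diphosphate, fell from 28.7, 39.8, 37.0 and 35.4 CPM to 17.4, 15.9, 18.7 and 19.99 CPM, a log2 change of −0.94. HSD17B7 (−0.92), ACAT2 (−0.78), SC5D (−0.70), CYP51A1 (−0.64), NSDHL (−0.62) and FDPS (−0.57) fell as well. Not past the threshold were MSMO1 with −0.63, SQLE with −0.51, IDI1 with −0.49, DHCR7 with −0.40, FDFT1 with −0.37 and MVK with −0.27, and LSS, EBP, TM7SF2 and PMVK ran from −0.07 to 0.30. With the correction for GC content and gene length, CYP51A1 (−0.59) and SC5D (−0.59) were not called.

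Among the fatty acid genes, FADS2 stood out. It had 59.9, 63.7, 61.8 and 64.8 CPM in WT and 20.8, 16.6, 23.3 and 22.8 CPM in KDAC6H611A, 2.93-fold lower (log2 −1.55 ± 0.10, edgeR adjusted p = 7.32e-07). FADS1, the delta-5 desaturase, had 0.12 and did not pass. FADS1 (chr11:61799627-61829318, minus strand) lies within the annotated extent of FADS2 (chr11:61792980-61867354, plus strand), and no source used here says that counting used strand, so the reads of this pair may be mixed. ACSS2, which makes acetyl-CoA from acetate, rose by 0.44 on the log2 scale, but this call was lost when any WT library, or KDAC6H611A replicate 1 or 3, was left out (0.40 to 0.49), and with that correction (0.33). SCD had 0.39, ELOVL6 0.33, ACACA 0.26 and FASN 0.11, none past the threshold, and ACLY had −0.40.

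SREBF1 rose 1.84-fold in KDAC6H611A, from 65.1, 68.2, 69.4 and 72.9 CPM to 131, 110.2, 117 and 139 CPM (log2 0.88 ± 0.09, edgeR adjusted p = 3.72e-05). Every KDAC6H611A library lay above every WT library. SREBF2 had −0.10 (adjusted p = 0.629) and INSIG1 0.43 (adjusted p = 0.0297), so that neither passed. Without replicate 4, the library with 0.173% mitochondrial rRNA, 2 members were higher and 6 lower, against 10.3% of all genes called (4.76% higher, 5.57% lower). That replicate was within the other 3 of its group for 21 members, above for 8 and below for 2. The count of 11 called members was 6 without WT replicate 3 or without KDAC6H611A replicate 1, and 7 without WT replicate 1, 2 or 4. With the total count in place of TMM it was 4, 1 higher and 3 lower. That scaling shifted the median of all genes by 0.01, and its share of all genes called is not given here.

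The lines with the first and the second KDAC6 domain inactive were also compared directly, a comparison chosen after the data were seen. In KDAC6H611A, 17 members were lower than in KDAC6H216A and 1, SREBF1, was higher, against 9.93% of 14961 genes called (4.61% higher, 5.31% lower). Of the lower ones 14 were sterol genes, led by HMGCS1 (log2 −1.59), ACAT2 (−1.45) and MVD (−1.41), and the others were STARD4, a sterol transfer protein (−0.72), LPIN1, a phosphatidate phosphatase (−0.50), and FADS2 (−2.31 ± 0.16, edgeR adjusted p = 1.84e-05). SREBF1 was 1.10 higher on the log2 scale. The sterol median was −1.05 and the fatty acid median −0.19. The count was 1 higher and 20 lower without KDAC6H216A replicate 1, and 1 higher and 11 lower without KDAC6H611A replicate 4. It was 10 in all without KDAC6H216A replicate 2 and 11 without KDAC6H216A replicate 3 or 4, or KDAC6H611A replicate 1. LPIN1 lost its call without KDAC6H216A replicate 2, 3 or 4 or KDAC6H611A replicate 1, 3 or 4 (−0.52 to −0.46) and with the total count only (−0.64), and SQLE, with −1.17, lost it without KDAC6H611A replicate 4 (−1.17).

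The third line had KDAC8 inactive. In KDAC8H143A, 19 members fell and 5 rose against WT, against 58.5% of 16101 genes called (31.6% higher, 26.9% lower). Of the sterol genes 13 fell and 2 rose, of the fatty acid genes 4 fell and 1 rose, and of the regulators 2 fell and 2 rose. The medians were −0.83, −0.47 and 0.04 on the log2 scale, against 0.08 for all genes. With the total count in place of TMM, 13 members fell and 7 rose. That scaling shifted the median of all genes by 0.29 on the log2 scale, and the share of all genes called with it is not given here.

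INSIG1 fell the most. It had 73.3, 84.3, 90.2 and 84.7 CPM in WT and 9.99, 14.2, 14.1 and 7.91 CPM in KDAC8H143A, 6.90-fold lower (log2 −2.79 ± 0.17, edgeR adjusted p = 3.68e-07). STARD4 fell by 2.23 on the log2 scale. Among the sterol enzymes CYP51A1 had 115, 138, 138 and 132 CPM in WT and 20.3, 32.5, 26.3 and 21.8 CPM here (log2 −2.32 ± 0.14). MSMO1 (−2.15), ACAT2 (−2.14), SC5D (−2.08), IDI1 (−1.72), SQLE (−1.47), HMGCS1 (−1.31) and NSDHL (−1.31) followed. The libraries of the groups overlapped for none of these, and did not for 25 members in all, against 33.1% of all genes with KDAC8H143A above and 31.8% below.

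In the fatty acid list SCD fell from 523 to 617 CPM in WT to 161, 347, 271 and 132 CPM, a log2 change of −1.30 ± 0.24 (edgeR adjusted p = 0.000519). ELOVL6, the elongase that makes stearate (−0.85), ACLY (−0.72) and FADS1 (−0.70) also fell. FADS2, with 0.21, ACSS2, with 0.01, and ACACA, the acetyl-CoA carboxylase, with −0.24, did not pass.

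TM7SF2 rose in KDAC8H143A while its neighbours in the pathway fell. It had 5.37, 7.98, 7.31 and 6.51 CPM in WT and 35.4, 22.3, 27.1 and 44.01 CPM in KDAC8H143A, 4.84-fold higher (log2 2.28 ± 0.23, edgeR adjusted p = 6.34e-06). PMVK, phosphomevalonate kinase, rose by 1.14, SREBF1 and SREBF2 each by 0.55, and FASN by 0.49, of which the last 3 turned negative with the correction for GC content and gene length given next. The SREBF2 levels were 163, 190.5, 186 and 195 CPM in WT and 234, 256, 306 and 244 CPM in KDAC8H143A, and the groups did not overlap. SREBF1 lost its call without KDAC8H143A replicate 3 (0.47), and FASN lost it without WT replicate 1 (0.42), 2 (0.49) or 3 (0.47), or KDAC8H143A replicate 3 (0.40) or 4 (0.40).

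The direction in KDAC8H143A moved with base composition. All 5 members that rose had transcripts over 55% GC, where 3 of 11 fell, and of the 20 members at or under 55% GC 16 fell and none rose. Across the 31 genes, which share the same libraries, Pearson's r between GC content and log2 fold change was 0.83. When counts were corrected for GC content and gene length, 25 members fell and 1, TM7SF2, rose (47.9% of all genes called). INSIG1 then had −2.53 and TM7SF2 1.18, while FASN (−0.85) and SREBF1 (−0.60) fell, and SREBF2 (−0.19), PMVK (0.10) and ELOVL6 (−0.44) were not called. MVD (−0.92), FADS2 (−0.68), LSS (−0.58), ACACA (−0.51) and ACSS2 (−0.42) then fell. The sterol median was −1.10 and the fatty acid median −0.77, so the order of the lists was kept. The r was 0.40 after the correction. No WT library had a mitochondrial rRNA share as low as these libraries. The part of that in the result was not tested and cannot be told apart from the line.

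**Figure D3:**
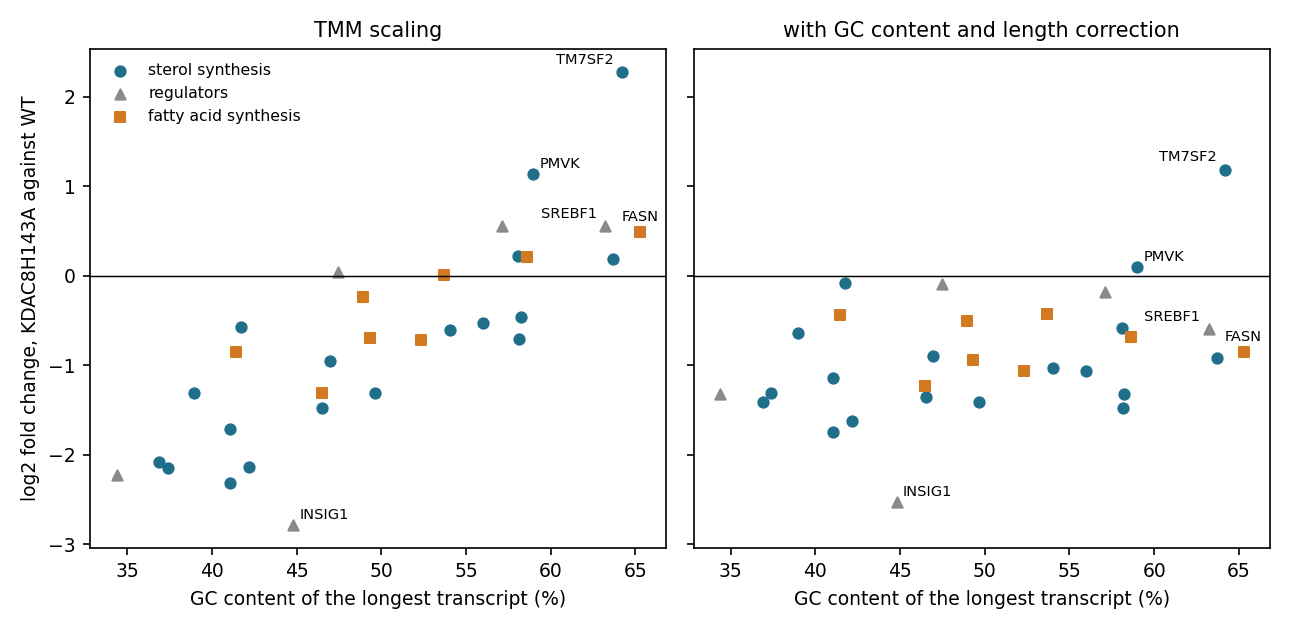
Log2 fold change of KDAC8H143A against WT (vertical axis) plotted against the GC content of the longest transcript in percent (horizontal axis) for the 31 members, with TMM scaling (left) and with the correction for GC content and gene length (right). The slope across genes is steep on the left (r = 0.83) and shallower on the right (r = 0.40), where INSIG1 is lowest and TM7SF2 highest in both.

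Nearly the whole pathway was lower in the Tubastatin A libraries than in WT. Of 31 members 27 fell and 3 rose, against 57.9% of 15246 genes called (28.6% lower, 29.3% higher), and SC5D, with −0.22, did not pass. Sterol genes fell in 16 of 18, regulators in 5 of 5 and fatty acid genes in 6 of 8, with medians of −1.17, −0.75 and −0.59 on the log2 scale against 0.00 over all genes. For 29 members the groups did not overlap, against 24.1% of all genes with the treated libraries below and 39.8% with them above.

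LSS, which folds squalene epoxide into lanosterol, fell the most, from 89.8, 104, 101 and 104 CPM to 25.9, 25.9 and 26.7 CPM, 4.13-fold lower (log2 −2.05 ± 0.05, edgeR adjusted p = 4.12e-17, n = 3 and 4). HSD17B7 (−2.02), MVD (−1.99), HMGCS1 (−1.98) and IDI1 (−1.90) were close to it, and MVK, mevalonate kinase, fell by 1.77. EBP (−0.58), DHCR7 (−0.66) and FDFT1 (−0.71) fell less. PMVK, the kinase between MVK and MVD, rose by 1.15, from 4.75, 4.61, 2.396 and 4.34 CPM to 8.52, 9.67 and 10.2 CPM.

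The regulators and fatty acid genes followed in part. INSIG1 and LPIN1 each fell by 1.32, SREBF1 by 0.68 and SREBF2 by 0.30, the last turning to 0.049 with the total count only. SCD fell from between 523 and 617 CPM to 218, 215.9 and 210.4 CPM (log2 −1.55 ± 0.05, edgeR adjusted p = 2.12e-15), FADS2 by 1.22 and FASN by 1.13. ELOVL6 rose by 0.76, from 28.1, 32.2, 34.1 and 34.8 CPM to 58.8, 58.5 and 61.4 CPM, and ACSS2 rose by 0.38.

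Most of the pathway was likewise lower in the PCI-34051 libraries than in WT. All 31 members passed, 28 lower and 3 higher (PMVK 0.75, ELOVL6 0.60, ACSS2 0.52), against 51.1% of 15346 genes called (25.6% lower, 25.5% higher). The medians were −1.20 for sterol genes, −0.90 for regulators and −0.54 for fatty acid genes, against −0.01 for all genes. LSS had 31.2, 30.4 and 28.9 CPM (log2 −1.83 ± 0.06, edgeR adjusted p = 4.94e-14) and HMGCS1 29.9, 32.9 and 28.7 CPM (−1.82), in each case below all 4 WT libraries. For 30 members the groups did not overlap, against 22.9% of all genes with the treated libraries below and 36.2% above. SCD (−1.28), LPIN1 (−1.20), INSIG1 (−1.17), FADS2 (−1.15) and FASN (−0.92) fell, and SREBF1 (−0.30) and SREBF2 (−0.20) fell as well, but had 0.084 and 0.18 with the total count only. PMVK lost its call without WT replicate 3 (0.54) or PCI-34051 replicate 1 (0.66), and SREBF2 without WT replicate 2, 3 or 4 or PCI-34051 replicate 1 or 2 (−0.20 to −0.17). With all 6 groups in one fit, 20 members were called, and the share of all genes called in that fit is not given here. Both comparisons share the 4 WT libraries, so their values stand side by side and are not independent. Neither inhibitor group had a mitochondrial rRNA share in the range of WT. The part of that in these changes was not tested and cannot be told apart from the treatment.

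**Figure D4:**
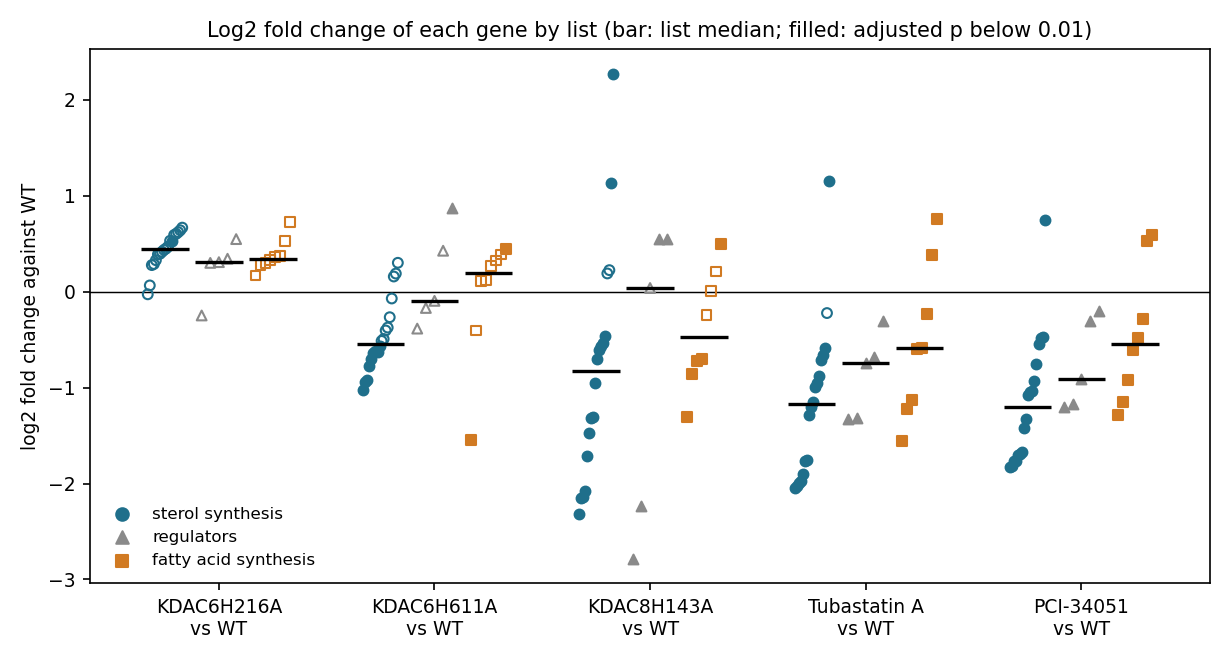
Log2 fold change against WT (vertical axis) of each of the 31 members in the 3 mutant lines and the 2 inhibitor groups, by list, with filled points for an edgeR adjusted p below 0.01 and a bar at the median of the list. The sterol median lies below the fatty acid median in every group but KDAC6H216A, where it lies 0.10 above.

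Set directly against each other, the inhibitors differed in few members, at doses that also differed (1 and 5 µM). With Tubastatin A, FDFT1 (0.22), squalene synthase, and FDPS (0.22), farnesyl diphosphate synthase, were higher than with PCI-34051, and SREBF1 (−0.37 ± 0.05, edgeR adjusted p = 0.000167), SCD (−0.27) and FASN (−0.21) were lower, against 5.65% of 18409 genes called (3.45% higher, 2.20% lower). SREBF1 had 49.3, 45.5 and 45.2 CPM with Tubastatin A and 59.6, 59.8 and 60.1 CPM with PCI-34051. The other 26 members had differences from −0.30 (MVD) to 0.40 (PMVK) and did not pass, which does not show that the inhibitors act alike on them. The count of 5 was 1 without Tubastatin A replicate 1, 2 or 3 and 2 without PCI-34051 replicate 1. With all 6 groups in one fit no member passed. With the total count only, which shifted the median of all genes by −0.03, 4 were lower and none higher. FASN was not called with the correction for GC content and gene length (−0.13).

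PCI-34051 and the inactive KDAC8 were compared to see whether blocking the enzyme and mutating it left the pathway at the same levels. Of the members 9 were higher and 11 lower with PCI-34051, 20 of 31, against 58.2% of 18540 genes called (30.3% higher, 27.8% lower), so that the share of members called was near that of all genes. Higher with PCI-34051 were INSIG1 (log2 1.80 ± 0.19, 38.9, 38.7 and 41.1 CPM against 7.91 to 14.2), SC5D (1.76), ELOVL6 (1.64), STARD4 (1.51), CYP51A1 (1.43), MSMO1 (1.3001), ACSS2 (0.69), ACAT2 (0.66) and ACLY (0.62). Lower were TM7SF2 (−2.84 ± 0.23, 4.53, 4.04 and 4.57 CPM against 22.3 to 44.01), LSS (−1.86), MVD (−1.68), FASN (−1.23), FADS2 (−1.17), MVK (−1.05), LPIN1 (−1.05), HSD17B7 (−1.01), FDPS (−0.70), SREBF1 (−0.67) and SREBF2 (−0.57). The groups did not overlap for 22 members, against 36.3% of all genes with PCI-34051 above and 34.8% below. HMGCS1 (−0.32), SQLE (0.34), IDI1 (0.15) and SCD (0.20) did not pass. With the correction for GC content and gene length 9 were higher and 8 lower (51.2% of all genes called), and 11 of the 20 calls were kept, among them INSIG1 (1.37) and TM7SF2 (−1.93). The other 9 were lost, namely SC5D (0.74), MSMO1 (0.25), STARD4 (0.22), ACAT2 (−0.03), FADS2 (−0.53), FDPS (−0.28), FASN (−0.21), SREBF1 (0.22) and SREBF2 (−0.03). In their place HMGCS1 (−1.26) and IDI1 (−0.65) were lower and PMVK (1.02), DHCR7 (0.92), EBP (0.78) and NSDHL (0.55) higher. Without the correction, SC5D lost its call without KDAC8H143A replicate 1 (1.62) or 3 (1.71), or PCI-34051 replicate 3 (1.74), and SREBF2 without PCI-34051 replicate 3 (−0.57).

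The sterol and fatty acid lists can be set against each other within each library, where scaling cancels. The median log2 level of the sterol genes relative to WT minus that of the fatty acid genes was −0.05 to 0.06 in the WT libraries. It was 0.06 to 0.16 in KDAC6H216A and −0.82 to −0.65 in KDAC6H611A. It was −0.57 to −0.25 in KDAC8H143A, −0.61 to −0.54 in the Tubastatin A libraries and −0.70 to −0.57 in those with PCI-34051. Every library of the last 4 groups was thus below every WT library, and every KDAC6H216A library was above them by a small margin. KDAC6H216A replicate 1 had 0.13 here, among the other 3 of its group. Between groups the difference of the list medians was 0.10, −0.74, −0.36, −0.59 and −0.66 in the same order.

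Genes around the pathway were counted by lists as well, to be read against the shares of all genes called, 58.5% in KDAC8H143A, 57.9% after Tubastatin A and 51.1% after PCI-34051. Of 7 genes that process the SREBPs, 1 rose and 4 fell in KDAC8H143A (RNF139, a ubiquitin ligase of the endoplasmic reticulum, −1.63), and 5 rose and none fell with each inhibitor, led by MBTPS2, the site-2 protease (1.01 with Tubastatin A and 1.11 with PCI-34051). Of 10 genes of sterol efflux and storage tested, 1 rose and 4 fell in KDAC8H143A (SOAT1, the cholesterol esterifying enzyme, −1.76), 4 rose and 3 fell with Tubastatin A and 6 rose and 3 fell with PCI-34051 (NPC2, the lysosomal sterol carrier, 1.44 in both). Of 9 genes of the isoprenoid branch, 1 rose and 6 fell in KDAC8H143A (NUS1, of dolichol synthesis, −1.55), and 3 rose and none fell with each inhibitor (NUS1, 0.63 and 0.50). Of the other fatty acid enzymes, 2 rose and 10 fell of 17 in KDAC8H143A (ME1, malic enzyme, −1.78), 8 rose and 2 fell of 18 with Tubastatin A and 6 rose and 2 fell of 18 with PCI-34051 (ME1, 1.26 and 1.32). In lists of this size, counts over both directions such as 5 of 7 or 5 of 10 are near those shares, while with PCI-34051 only 1 of 10 efflux and storage genes was not called. Such pooled counts do not show direction, and with each inhibitor all 5 calls among the 7 processing genes were higher. By direction, 31.6% of all genes were higher and 26.9% lower in KDAC8H143A. These shares were 29.3% and 28.6% with Tubastatin A, and 25.5% and 25.6% with PCI-34051. With the correction for GC content and gene length, the counts in KDAC8H143A became 5 lower and none higher for the processing genes, 6 lower and none higher for efflux and storage, 4 lower and 1 higher for the isoprenoid branch and 9 lower and 1 higher for the other fatty acid enzymes (47.9% of all genes called).

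In KDAC6H216A the counts of these lists changed when replicate 1 was left out. With all its libraries no gene of the lists was called by edgeR or by DESeq2, against edgeR calls for 0.834% of all genes. In the same order, 2, 4, 1 and 4 genes had an unadjusted p under 0.05, a cut for which no share of all genes is given here. Without replicate 1, the library with 0.195% mitochondrial rRNA, 4 of 7 processing genes, 5 of 10 of efflux and storage, none of the isoprenoid branch and 7 of 17 other fatty acid enzymes were higher and none was lower, against 26.0% of all genes called. In KDAC6H611A only the other fatty acid enzymes had calls, with 2 of 18 higher (ACSL5, an acyl-CoA synthetase, 2.59), against 12.3% of all genes. An unadjusted p under 0.05, again without a share of all genes, was found for 1 processing gene, 4 of efflux and storage and 1 of the isoprenoid branch. By DESeq2, whose share of all genes called is not given here, 1 processing gene was higher and 1 gene of efflux and storage lower. It called none of the isoprenoid branch, and 2 higher and 2 lower of the other fatty acid enzymes. Without replicate 4 of that line the edgeR counts were again 2 higher in that list and 0 in the others, against 10.3% of all genes called.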

How the data were processed

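RNA was measured in 22 libraries of HT1080 cells in 6 groups, which were read from the sample titles. Per the labels and the methods, the authors depleted rRNA and sequenced read pairs, then trimmed them with Trimmomatic 0.39, aligned them with Bowtie2 2.4.5 to GRCh38 and estimated counts with RSEM 1.3.3, and they tested with DESeq2 1.38.2. The annotation release is not given in the sources used here. The deposited table holds these expected counts per gene and library as the authors made them, without scaling for depth or length, and 10.6% to 13.5% of the values per library were not whole numbers. They were rounded to whole numbers here.

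Each comparison was a fit of its 2 groups with edgeR 4.0.16 in R 4.3.3 (TMM, filterByExpr, glmQLFit, glmQLFTest), with Benjamini-Hochberg adjustment over all genes tested and a threshold of 0.01, as in the study. The standard error is the size of the log2 fold change over the square root of F. Levels are CPM after TMM scaling of all 22 libraries, and the log2 levels in the heat map use a pseudocount of 0.5 CPM. Lengths and GC content came from GENCODE release 44 on the same build (56558 of 60675 genes matched by identifier). Promoters came from RefSeq. At the lowest total, 3 counts are 0.572 CPM.

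The members, the other pathway lists and the comparison of the KDAC6 lines were chosen with earlier results of these data known. Every member could be named. Followed through the alternatives were the 3 largest rises and falls among called members of each comparison, and HMGCS1, SQLE, INSIG1, SREBF1, SREBF2, LPIN1, FASN, SCD, ACACA and FADS2 where called, and of each other list the called gene with the largest change was named. The alternatives were DESeq2 1.42.0, upper quartile scaling, scaling by the total count alone, dropping the filter, a minimum of 10 counts per library, all 6 groups in one fit, protein-coding genes only, smooth terms for GC content and length (mgcv 1.9.3), a block for the replicate number, both together, an adjusted p of 0.05 and each library left out in turn, and for the comparison of the KDAC6 lines DESeq2, the total count, the GC and length terms, the block and each library left out. Simulated counts were put through the fits for KDAC8H143A against WT, Tubastatin A against WT and Tubastatin A against PCI-34051. Few genes were changed in them, and all libraries had a common dispersion estimated from the WT libraries. The measured groups differed in spread and, against WT, in far more genes, so the shares below hold for the simulated counts only. In that order, 0.510%, 1.49% and 0.498% of the calls of the main edgeR fit were false. When a GC bias was added to the counts, these shares were 97.9%, 97.9% and 98.1%, so the main fit gives no protection from such a bias. After the correction for GC content and gene length they were 1.02%, 0.990% and 0.498%. The added bias depended on GC content alone, which is what the correction models, so these shares do not show how it does with the measured data. Summaries used pandas 2.3.3, numpy 2.4.6 and matplotlib 3.10.9 in python 3.11.15.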

Additional observations from a re-analysis of the deposited data

Results flagged for a closer look

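Within groups of 4 libraries, the distance of the highest or the lowest library from its nearest neighbour was set against the range of the group (Dixon's ratio, read against its 95% critical value). Of 132 sets of values tested 13 passed, where chance passes about 1 in 20 of independent sets. The sets of a group share the same libraries, so they are not independent and the count does not show an excess over chance. KDAC6H216A replicate 1 made up 10 of them. It was lowest for FDFT1 (ratio 0.838), SC5D (0.842), DHCR7 (0.955), SREBF2 (0.911), FASN (0.877), SCD (0.977), FADS1 (0.884), FADS2 (0.865) and the fatty acid median (0.911), and highest for TM7SF2 (0.873). The same library had 0.195% of its counts on mitochondrial rRNA, against 13.1% to 15.1% in the other 3 of its group, and the part of this in the member levels was not tested. Single other libraries were KDAC8H143A replicate 1, lowest for FDFT1 (0.847), WT replicate 4, highest for EBP (0.966), and KDAC6H611A replicate 3, highest for ACSS2 (0.872).

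The KDAC6 lines differed from each other by a direct test, in which 18 members were called between KDAC6H611A and KDAC6H216A (edgeR adjusted p below 0.01, 9.93% of all genes called). This comparison was chosen after the data were seen, and its count ran from 10 to 21 with libraries left out. KDAC6H216A pooled clones and KDAC6H611A did not, so mutation and clone cannot be told apart.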

How the results depend on the processing

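The count of called members depended most on the setting in KDAC6H216A against WT. Except where given above, the shares of all genes called under the other settings are not given here, so the counts below have no background beside them. From 1, it became 15 with DESeq2, 21 with the total count only, 3 with no filter, 2 with all 6 groups in one fit, 3 with protein-coding genes only and 10 at an adjusted p of 0.05, and it ran from 0 to 28 with single libraries left out. In KDAC6H611A the count of 11 became 4 with the total count only and 18 at an adjusted p of 0.05, and ran from 6 to 16 with libraries left out. With PCI-34051 the count of 31 became 20 with all 6 groups in one fit (range with libraries left out 29 to 31). Between the inhibitors the count of 5 became 0 with all 6 groups in one fit and 10 at an adjusted p of 0.05 (1 to 5 with libraries left out). The ranges with libraries left out were 21 to 26 for KDAC8H143A, 30 to 30 for Tubastatin A, 16 to 21 for PCI-34051 against KDAC8H143A and 10 to 21 for KDAC6H611A against KDAC6H216A. The sterol minus fatty acid median ran from 0.06 to 0.13 in KDAC6H216A, −0.82 to −0.68 in KDAC6H611A, −0.41 to −0.33 in KDAC8H143A, −0.60 to −0.57 with Tubastatin A and −0.70 to −0.61 with PCI-34051. With the correction for GC content and gene length, SREBF2 (−0.19), SREBF1 (−0.60) and FASN (−0.85) changed direction in KDAC8H143A, as they did with the block added (−0.20, −0.60 and −0.86), and SREBF1 in PCI-34051 against KDAC8H143A became 0.22 (0.19 with the block added). With the total count only, which shifted the all-gene median (log2) by 0.35 with Tubastatin A, 0.39 with PCI-34051, 0.29 in KDAC8H143A and 0.17 in KDAC6H216A, SREBF2 became 0.049 with Tubastatin A and SREBF1 0.084 and SREBF2 0.18 with PCI-34051. Relative to the median of all genes these were −0.30, −0.30 and −0.19. Of 664 followed values under the other settings 42 lost the call, 11 changed direction and the others kept both, and of 508 with a library left out 455 kept both, 53 lost the call and 0 changed direction. Causes were not tested. The members with the fewest counts in any library were PMVK (16), SC5D (18), TM7SF2 (26) and HSD17B7 (28).

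Replicate numbers were not shown to pair libraries. The mean correlation of same-numbered libraries over the 8 comparisons was −0.02 to 0.09, not every pair passed 0.1 in any comparison, and in no comparison did every library correlate best with its own number. With the replicate block, KDAC6H216A against WT had 0 members called (0 with the correction added) and the inhibitors differed in 2 (3 with the correction added).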
